A study of Mus musculus with 15 samples.

Results

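The regions described here carried H3K27ac, an acetylation of histone H3 on lysine 27, in cultured mouse eosinophils, in immature granulocytes, or in both. Eosinophil regions were overlapping peaks of the BALB/c H3K27ac libraries that had been called in replicate 1 and in replicate 2. They were set against 1 outside list, named ImmGran by the submitters and re-analysed by them from another study. A region was shared where it held at least 1 bp of a peak of the other cell type and private where it held none. Together the 3 H3K27ac lists held 80027 of the 753929 peaks in all peak lists used. The peaks gave 17787 eosinophil regions called in both libraries and 36357 immature granulocyte peaks.

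The series mapped eosinophils grown from unselected bone marrow progenitors over 14 days, in 15 libraries. BALB/c cells, and for ATAC and H3K27ac also cells titled C57 with the strain label BL6/57, received stem cell factor and FLT3 ligand at 100 ng/mL each on days 0 to 3 and interleukin 5 at 10 ng/mL on days 4 to 14. H3K27ac, H3K4me3, H3K4me1, open chromatin (ATAC-seq) and RNA had 2 BALB/c libraries each and PU.1 had 1. C57 cells had 2 H3K27ac libraries and 2 ATAC libraries. The C57 ATAC libraries were used here only in counting how many of all 19 peak lists had a peak in a region. The labels do not say that replicates came from separate cultures or animals, so their spread may be technical. For the immature granulocytes, with 1 H3K27ac and 1 PU.1 library, no source used here gives the strain, the tissue or the purification. Their identity rests on the submitters' name and could not be checked against RNA.

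H3K27ac is placed by the acetyltransferases CBP and p300 at promoters and enhancers in use, and H3K4me3 is concentrated at active promoters. An acetylated region away from H3K4me3 is therefore often read as an enhancer, and enhancers differ between cell types more than promoters do. PU.1, encoded by Spi1, is an ETS-family transcription factor that opens and holds enhancers in myeloid cells and is needed for granulocyte and macrophage development. Immature granulocytes are the bone marrow stages in which primary granules form, and eosinophils are granulocytes whose granules hold cationic proteins such as major basic protein and eosinophil peroxidase.

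The eosinophil label was checked in the BALB/c RNA libraries, which held 40306679 and 30465490 counts. All 13 eosinophil markers were detected at 1 CPM (counts scaled by the library total) or more in both libraries, with a summed level of 14075 and 14353 CPM in replicates 1 and 2. Prg2, which encodes major basic protein, stood at 3910 and 4195 CPM. The 8 genes of primary granules and their precursors were detected at a low summed level of 72.1 and 72.6 CPM, with the myeloperoxidase gene Mpo at 23.5 and 26.7 CPM. Markers of later neutrophils (12 of 12 detected) summed to 2397 and 2078 CPM and those of macrophages (9 of 10 detected, Marco at 0) to 5144 and 6008 CPM. The part of such cells in the results was not tested.

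Most eosinophil regions also carried a peak in immature granulocytes, while slightly more immature granulocyte peaks were private than shared. Of the 17787 eosinophil regions, 4397 were private, which is 24.7% (95% Wilson interval 24.1 to 25.4%), and 13390 were shared, which is 75.3% (74.6 to 75.9%). Of the 36357 immature granulocyte peaks, 17404 were private, which is 47.9% (47.4 to 48.4%). A further 16800 (46.2%) lay in eosinophil regions of both libraries, and 2153 (5.92%) met a region of only 1 eosinophil library and were put in neither set. The intervals here and below cover counting error over regions only, since the outside list is 1 library.

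The share of private regions rested on how the eosinophil libraries were combined. With replicate 1 alone 6390 of 20467 eosinophil peaks (31.2%) were private, and with replicate 2 alone 8154 of 23203 (35.1%). Regions called in a single eosinophil library lacked an immature granulocyte peak in 4816 of 6998 cases (68.8%). A −log10 q minimum of 5 in every list gave 777 private eosinophil regions and 8096 private immature granulocyte peaks. Here q is the false discovery rate the authors' caller gave each peak. Weaker peaks were dropped before the overlap, so the sets were formed anew. A region private at this minimum can hold a weaker peak of the other cell type. Taking regions of either eosinophil library gave 9213 private eosinophil regions, and the C57 libraries in place of BALB/c gave 2793. With lists of equal length 7303 immature granulocyte peaks were private.

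**Figure D1:**
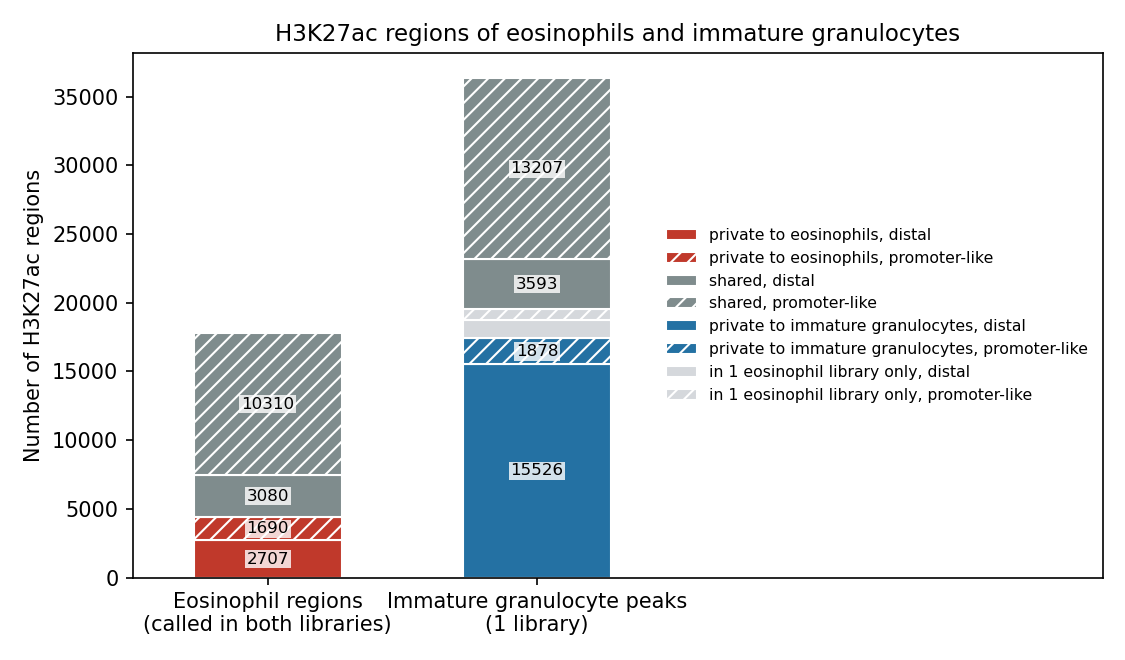
Number of H3K27ac regions (y axis) in eosinophils, left, and of peaks in immature granulocytes, right, split by whether the other cell type had a peak and, by hatching, whether H3K4me3 overlapped. Distal private peaks made the largest block in immature granulocytes, 15526, while shared promoter-like regions made the largest block in eosinophils, 10310.

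Few calls hung on the edge of a peak. Of the private eosinophil regions, 113 (2.57%) had an immature granulocyte peak within 100 bp and 655 (14.9%) within 1000 bp, and the median distance was 9031 bp. Of the private immature granulocyte peaks, 426 (2.45%) had an eosinophil peak within 100 bp and 2031 (11.7%) within 1000 bp, with a median distance of 16675 bp. At the other side of the limit, 137 shared regions (1.02%) overlapped by less than 100 bp.

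As whole lists, the eosinophil libraries resembled each other more than either resembled the immature granulocyte list. The Jaccard index, the length in base pairs covered by both lists over the length covered by either, was 0.650 for the eosinophil pair. It was 0.309 for eosinophil replicate 1 with immature granulocytes and 0.312 for replicate 2. The difference was 0.339, and setting an eosinophil library apart in place of the outside one gave −0.172 and −0.167. By an exact permutation over these 3 choices, one-sided, p was 0.333, the lowest that 3 libraries can give, so 0.05 is out of reach. With the C57 libraries, whose replicates held 14992 and 27527 peaks, the difference was 0.174.

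Other outside lists gave the immature granulocyte values a scale. The index of the eosinophil replicates was 0.340 and 0.355 with neutrophils and 0.239 and 0.267 with macrophages, which also had 1 list each. Peaks of eosinophil replicates 1 and 2 met an immature granulocyte peak in 68.8% and 64.9% of cases, a neutrophil peak in 65.5% and 60.6%, and a macrophage peak in 79.2% and 75.2%. The macrophage list held 59401 peaks, the immature granulocyte list 36357 and the neutrophil list 21838, so the order of these shares is also the order of list length.

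Private and shared regions differed in where they lay. A region was called promoter-like where it overlapped 1 of the 17611 H3K4me3 regions found in both BALB/c libraries, and distal otherwise. Of all eosinophil regions 32.5% were distal and of all immature granulocyte peaks 56.4%. Among private eosinophil regions 2707 of 4397 were distal, 61.6% (60.1 to 63.0%), against 3080 of 13390 shared regions, 23.0% (22.3 to 23.7%), a difference of 38.6 percentage points (36.9 to 40.2). Private immature granulocyte peaks were distal in 15526 of 17404 cases, 89.2% (88.7 to 89.7%), against 3593 of 16800 immature granulocyte peaks in shared regions, 21.4% (20.8 to 22.0%). Private regions of both cell types were thus more often distal than shared ones.

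The split rests on H3K4me3 of eosinophils, since no H3K4me3 list of immature granulocytes is used here. A promoter active only in immature granulocytes would be counted as distal, so the 89.2% is not a like-for-like match of the 61.6%. At a −log10 q of 5 or more, with sets formed anew, the difference between private and shared eosinophil regions was 5.33 points. There were then 56 distal private and 40 distal shared regions. With each eosinophil library alone it was 40.1 and 43.2 points.

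The strength of a peak, by the authors' own −log10 q within its list, ran with sharing. Eosinophil regions were put in 5 bins of equal size by −log10 q. Among distal eosinophil regions the private share was 56.2%, 47.7%, 35.9%, 29.5% and 26.7% in bins 1 to 5, and the last bin held 131 regions. Among promoter-like eosinophil regions it was 37.5%, 24.2%, 15.3%, 7.95% and 4.73%. Among distal immature granulocyte peaks it was 84.1%, 80.4%, 75.8%, 67.2% and 55.7%, higher than among distal eosinophil regions in each of the 5 bins. Among promoter-like immature granulocyte peaks it was 24.6%, 17.1%, 14.7%, 9.90% and 5.50%, lower than among promoter-like eosinophil regions in bins 1 to 3 and higher in bins 4 and 5. In each bin the distal share stood above the promoter-like share in both cell types.

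**Figure D2:**
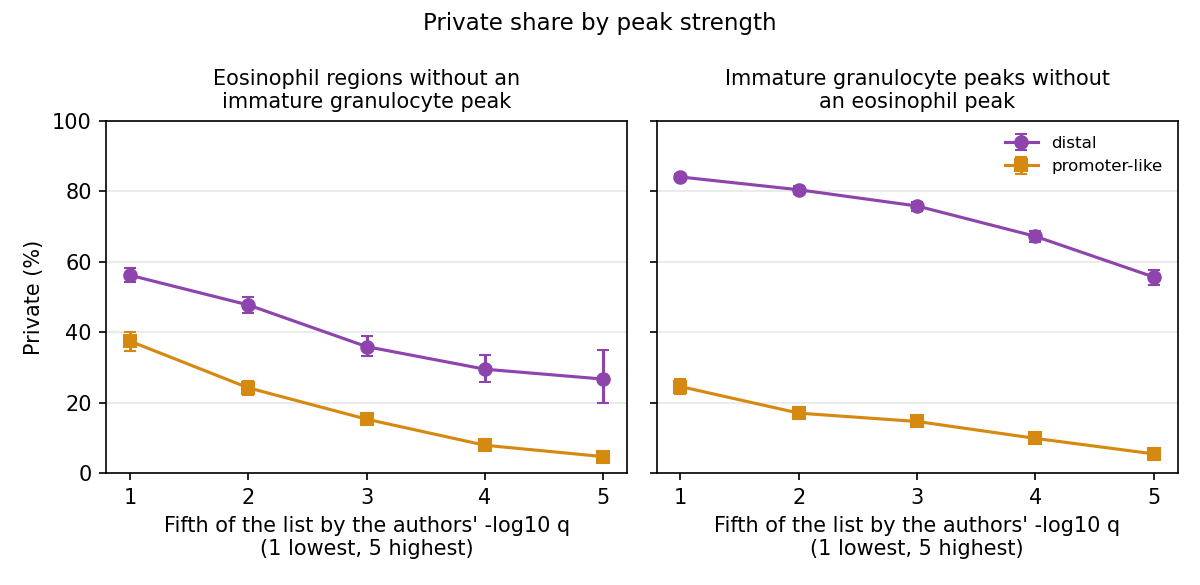
Share of private regions (y axis, %) by bin of −log10 q within the list (x axis, lowest to highest) for eosinophil regions, left, and immature granulocyte peaks, right; bars are 95% Wilson intervals. Private shares were lower in stronger bins in all 4 lines, and 55.7% of the strongest distal immature granulocyte peaks were still private.

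Widths differed between the lists as well. Private distal regions had a median width of 789 bp in eosinophils and 375 bp in immature granulocytes, against 993 bp for shared distal regions. Private promoter-like regions had a median of 903.5 bp in eosinophils and 420 bp in immature granulocytes, against 1297 bp for shared ones. Immature granulocyte peaks in shared regions measured 482 bp when distal and 633 bp when promoter-like. The PU.1 differences between the private sets are therefore also given for regions of 500 to 1000 bp, a choice made after seeing the data. Shares of the other readouts below are for regions of any width unless stated.

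**Figure D3:**
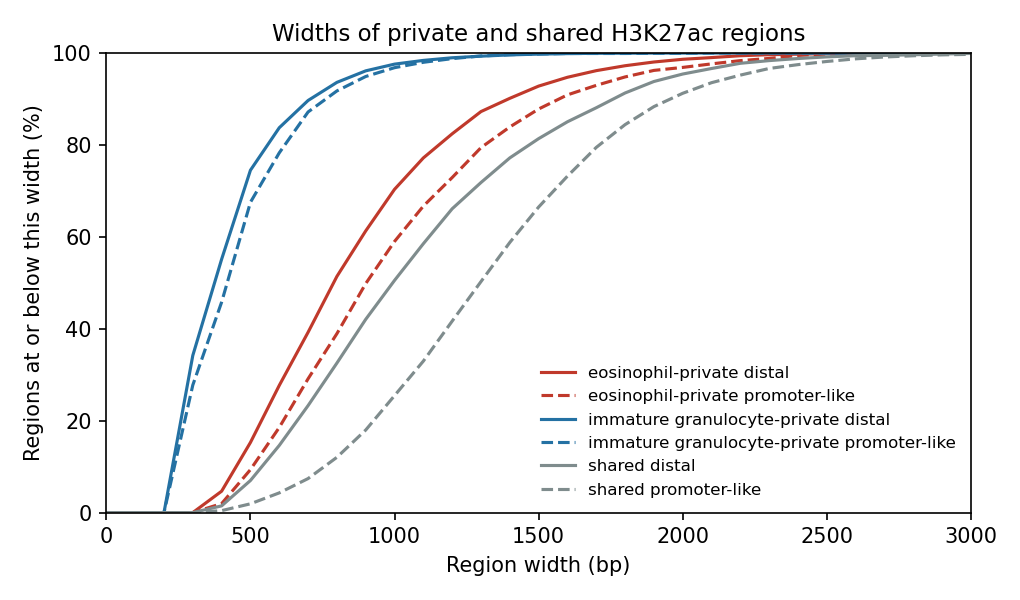
Cumulative share of regions (y axis, %) at or below a width (x axis, bp) in the 6 sets. Immature granulocyte-private peaks were the narrowest, with medians of 375 bp (distal) and 420 bp (promoter-like), and shared promoter-like regions the widest, with a median of 1297 bp.

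Eosinophil PU.1 lay at most private eosinophil regions and at a minority of private immature granulocyte peaks. Over all regions, 87.8% of eosinophil regions and 55.6% of immature granulocyte peaks held an eosinophil PU.1 peak. Among distal regions the share was 74.4% (72.7 to 76.0%) at eosinophil-private regions, 23.1% (22.4 to 23.7%) at immature granulocyte-private peaks and 85.9% (84.7 to 87.1%) at shared regions. Eosinophil-private exceeded immature granulocyte-private distal regions by 51.3 points (49.5 to 53.1) and lay 11.5 points below shared ones (−13.6 to −9.49). With each eosinophil H3K27ac library alone, where 1 list met 1 list, the difference between the private sets was 36.9 points with replicate 2 and 35.9 points with replicate 1. It was 44.7 points in regions of 500 to 1000 bp and 31.8 points at a −log10 q of 5 or more. With that minimum the distal shares were 85.7% of 56 eosinophil-private regions and 53.9% of 3889 immature granulocyte-private peaks. Those sets were formed anew and can hold weaker peaks of the other cell type. Among immature granulocyte-private distal peaks of the main set, the share was 41.1% in bin 5 of −log10 q.

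PU.1 of immature granulocytes lay at a minority of the private regions of both cell types. It lay at 51.6% of all eosinophil regions and at 35.1% of all immature granulocyte peaks. Among distal regions it lay at 29.2% (27.5 to 30.9%) of eosinophil-private regions, 20.5% (19.9 to 21.2%) of immature granulocyte-private peaks and 59.0% (57.2 to 60.7%) of shared regions. The value at eosinophil-private regions lay 29.8 points below that at shared ones (−32.2 to −27.3). The excess over immature granulocyte-private peaks, 8.64 points (6.84 to 10.5), depended on the setting: it was 1.14 and 0.547 points with eosinophil replicate 2 or 1 alone, 2.16 with regions of either library and 2.10 (−0.589 to 4.84) in regions of 500 to 1000 bp, while the C57 libraries gave 17.1. At a −log10 q of 5 or more it was 6.75 points, with an interval of −6.22 to 19.3. With that minimum, which formed the sets anew, the shares were 53.6% of 56 eosinophil-private distal regions and 46.8% of immature granulocyte-private distal peaks. In bin 5 of −log10 q of the main sets they were 25.7% of 35 regions and 42.5%.

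For eosinophil PU.1 the gap between the private sets was smaller at promoter-like regions than at distal ones. For immature granulocyte PU.1 it was 5.13 points at promoter-like and 8.64 at distal regions, but this order depended on the setting. At a −log10 q of 5 or more it was 10.5 against 6.75 points, and with H3K27ac lists of equal length 8.1 against 6.23. Eosinophil PU.1 lay at 76.4% of eosinophil-private, 49.5% of immature granulocyte-private and 93.7% of shared promoter-like regions. Eosinophil-private exceeded immature granulocyte-private promoter-like regions by 26.9 points (23.9 to 29.9) and lay 17.2 points below shared ones (−19.4 to −15.2). The difference between the private sets was 15.9 points with eosinophil H3K27ac replicate 2 alone, 11.6 with replicate 1 alone, 19.1 in regions of 500 to 1000 bp and 10.4 at a −log10 q of 5 or more. With that minimum the shares were 96.3% at eosinophil-private and 85.8% at immature granulocyte-private regions, and the latter numbered 4207 against 1878 without it. Immature granulocyte PU.1 lay at 31.1% of eosinophil-private, 25.9% of immature granulocyte-private and 58.7% of shared promoter-like regions. The private sets differed by 5.13 points (2.17 to 8.10), and eosinophil-private regions lay 27.7 points below shared ones (−30.0 to −25.2). The direction between the private sets depended on the setting. Eosinophil-private minus immature granulocyte-private was −1.59 points (−4.15 to 0.956) with eosinophil replicate 2 alone, −3.35 (−5.77 to −0.905) with replicate 1 alone and −4.94 (−9.87 to −0.0761) in regions of 500 to 1000 bp. It was −0.449 points with windows of 1000 bp, 0.461 with regions of either library, 10.5 at a −log10 q of 5 or more and 13.3 with the C57 libraries. With the −log10 q minimum immature granulocyte PU.1 lay at 60.6% of eosinophil-private and 50.2% of immature granulocyte-private promoter-like regions.

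**Figure D4:**
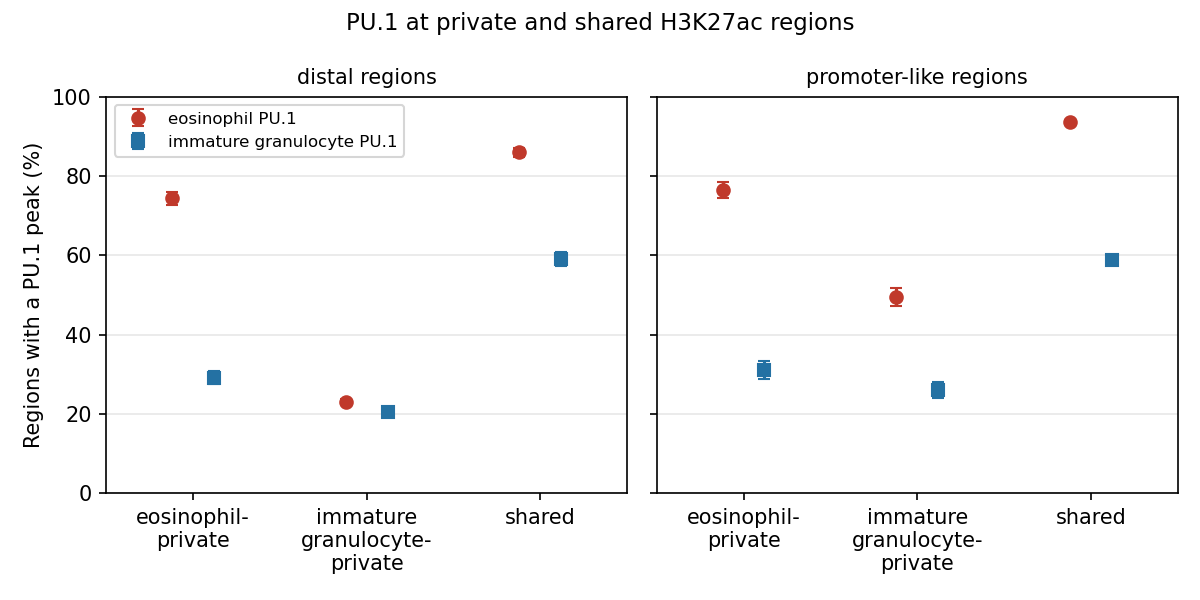
Share of regions with a PU.1 peak (y axis, %) of eosinophils (circles) and immature granulocytes (squares) in distal regions, left, and promoter-like regions, right; bars are 95% Wilson intervals over regions, many smaller than the symbol. Both PU.1 lists lay highest at shared regions, and the lists came within 3 points of each other only at immature granulocyte-private distal peaks, 23.1% and 20.5%.

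Most private immature granulocyte peaks of the main set held PU.1 of neither cell type. With a −log10 q minimum of 5, which formed the sets anew, 53.9% of the distal ones held eosinophil PU.1. Without it 70.7% of the distal ones held no PU.1 peak, 14.3% held both, 8.75% only that of eosinophils and 6.21% only that of immature granulocytes. Of the eosinophil-private distal regions 24.8% held no PU.1 peak, 28.3% held both, 46.1% only that of eosinophils and 0.850% only that of immature granulocytes. Of the shared distal regions 12.6% held no PU.1 peak, 57.5% both, 28.4% only that of eosinophils and 1.49% only that of immature granulocytes. Among distal regions a PU.1 peak of immature granulocytes alone was thus least common at eosinophil-private regions and most common at immature granulocyte-private peaks. Among promoter-like regions it was least common at shared ones, 0.252%, against 0.651% at eosinophil-private and 2.93% at immature granulocyte-private ones.

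The PU.1 lists differed in length and shape, with 62236 peaks of a median 457 bp in eosinophils and 35068 of 307 bp in immature granulocytes. Of the eosinophil peaks 40.4% overlapped one of immature granulocytes, and of the immature granulocyte peaks 73.9% overlapped one of eosinophils. Immature granulocyte PU.1 peaks inside eosinophil-private distal regions met an eosinophil PU.1 peak in 96.4% of 803 cases, and those inside immature granulocyte-private distal peaks in 69.8% of 3224 cases. With PU.1 lists of equal length the share of distal regions with eosinophil PU.1 was 60.4% at eosinophil-private regions, 15.4% at immature granulocyte-private peaks and 73.9% at shared regions.

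PU.1 shares also moved with strength. At private distal immature granulocyte peaks, eosinophil PU.1 lay at 16.3% in bin 1 and 41.1% in bin 5 of −log10 q, and immature granulocyte PU.1 at 12.9% and 42.5%. At private distal eosinophil regions, eosinophil PU.1 lay at 69.6% in bin 1 and 82.6% in bin 4, and at 65.7% of the 35 regions in bin 5. Immature granulocyte PU.1 lay there at 29.1% in bin 1, 32.9% in bin 4 and 25.7% in bin 5.

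Open chromatin and H3K4me1, both from eosinophils and called in both libraries, set the private sets apart. ATAC regions overlapped 53.0% (51.1 to 54.9%) of eosinophil-private distal regions, 7.78% (7.37 to 8.21%) of immature granulocyte-private distal peaks and 69.6% (68.0 to 71.2%) of shared distal regions. H3K4me1, a mark of enhancers, overlapped 46.5% (44.7 to 48.4%), 5.84% (5.48 to 6.22%) and 48.7% (47.0 to 50.5%) of the same sets. Between eosinophil-private and shared distal regions the H3K4me1 difference was −2.19 points, with an interval that includes 0 (−4.76 to 0.391), and at a −log10 q of 5 or more, with few distal regions left, it was 20.4 points. At promoter-like regions ATAC lay at 83.1% of eosinophil-private, 57.2% of immature granulocyte-private and 96.1% of shared regions.

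Among distal regions that were open in eosinophils, the eosinophil PU.1 shares lay closer together than over all distal regions. The immature granulocyte PU.1 shares of the private sets lay further apart. Eosinophil PU.1 lay at 90.1% of 1435 open eosinophil-private regions, 78.1% of 1208 open immature granulocyte-private peaks and 93.9% of 2145 open shared regions. Immature granulocyte PU.1 lay at 39.8%, 56.2% and 67.9% of these sets in the same order, so that among open regions the immature granulocyte-private peaks held it more often than the eosinophil-private regions did. Among distal regions that were not open, eosinophil PU.1 lay at 56.7% of eosinophil-private regions, 18.4% of immature granulocyte-private peaks and 67.7% of shared regions. Immature granulocyte PU.1 lay there at 17.2%, 17.5% and 38.6%.

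Eosinophils of another strain, which took no part in choosing the regions, carried H3K27ac far more often at eosinophil-private regions. Overlapping C57 peaks were joined into regions, and those called in both C57 libraries were used, so a region can meet such a joined region without meeting each replicate's own peak. They overlapped 73.4% of all eosinophil regions. They overlapped 48.6% (47.2 to 50.1%) of eosinophil-private regions, 4.71% (4.41 to 5.04%) of immature granulocyte-private peaks and 81.6% (80.9 to 82.2%) of shared regions, and the private sets differed by 43.9 points (42.4 to 45.4). The C57 replicates differed from each other: at eosinophil-private distal regions replicate 1 had a peak in 34.98% and replicate 2 in 77.4%, at immature granulocyte-private distal peaks in 1.894% and 10.3%, and at shared distal regions in 55.1% and 89.4%. The order of the sets was alike in both replicates. With eosinophil regions of either BALB/c library the difference over all regions was 26.3 points, and with replicate 2 alone 28.3.

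Neutrophils and macrophages, mature relatives of these cells, shared part of each set. Neutrophil H3K27ac overlapped 35.2% of eosinophil-private, 16.5% of immature granulocyte-private and 68.9% of shared distal regions. Macrophage H3K27ac overlapped 41.8%, 33.5% and 75.1% of the same sets. Of eosinophil-private distal regions 1196 (44.2%, 42.3 to 46.1%) held a peak of neither. The same held for 60.6% of immature granulocyte-private distal peaks and 12.7% of shared distal regions. At promoter-like regions the macrophage shares of the private sets were 74.1% in eosinophils and 74.7% in immature granulocytes, a difference of −0.571 points (−3.44 to 2.29). It was 11.1 points with the C57 libraries and 6.34 with lists of equal length.

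**Figure D5:**
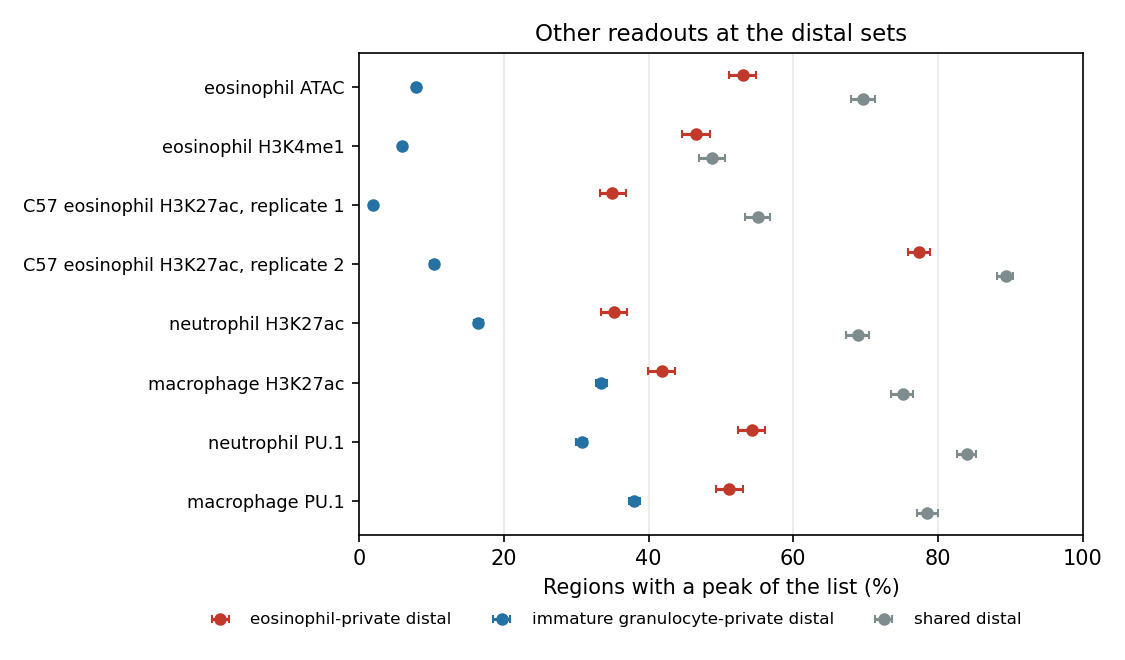
Share of distal regions with a peak of each list (x axis, %) in the eosinophil-private, immature granulocyte-private and shared sets; bars are 95% Wilson intervals over regions. Immature granulocyte-private peaks had the lowest share for all 8 lists shown, from 1.894% for C57 replicate 1 to 38.0% for macrophage PU.1. The sets were not matched for width, with medians of 789 bp (eosinophil-private), 375 bp (immature granulocyte-private) and 993 bp (shared).

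Distal regions of all sets lay far from H3K4me3. The median distance to a reproducible H3K4me3 region was 18390 bp for eosinophil-private regions, 25003.5 bp for immature granulocyte-private peaks and 15853.5 bp for shared regions. Within 5000 bp of one lay 16.2%, 14.8% and 20.0% of these sets. Private distal regions were spread along the genome, with a median of 2 per 1 Mb window among the 1145 windows that held any of eosinophils and 6 among the 1942 that held any of immature granulocytes. The eosinophil windows with most were chr10:94000001-95000000, chr11:34000001-35000000 and chr7:87000001-88000000 with 11 each. The immature granulocyte windows with most were chr13:112000001-113000000 with 35 and chr10:43000001-44000000 and chr4:59000001-60000000 with 32 each, where eosinophils had 1, 3 and 5 private distal regions.

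Single regions were picked for the highest score or the widest span and need not be typical of their sets. The 3 highest-scoring eosinophil-private promoter-like regions had peaks in 17, 18 and 15 of 19 peak lists, against a set median of 13. The 3 highest-scoring eosinophil-private distal regions had peaks in 16, 13 and 9, against a set median of 10. Positions are those of the mm9 build, and since no annotation of that build was used, no gene is put to a region. The enrichment values are the authors' fold over background for the strongest peak in the region. Among eosinophil-private distal regions the highest score belonged to chr8:27079826-27080606, with 9.07 and 12.4-fold H3K27ac in replicates 1 and 2 and no immature granulocyte peak. It also had PU.1 of eosinophils at 18.03-fold and of immature granulocytes at 14.5-fold, and H3K27ac in C57 cells at 3.69 and 5.42-fold, in neutrophils at 3.49-fold and in macrophages at 2.77-fold. The region lacked a peak call in immature granulocyte H3K27ac but held immature granulocyte PU.1.

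The next region, chr19:61000387-61000877, had 10.7 and 8.98-fold H3K27ac in replicates 1 and 2, eosinophil PU.1 at 17.9-fold and no immature granulocyte PU.1. The third, chr17:4626024-4626757, had 8.89 and 9.01-fold H3K27ac and an ATAC region, but no PU.1 of either cell type and no C57 peak. Among eosinophil-private promoter-like regions the highest score was at chrX:166649772-166650346, with 12.8 and 16.8-fold H3K27ac in replicates 1 and 2. There PU.1 stood at 29.6-fold in eosinophils and 25.1-fold in immature granulocytes, and C57 H3K27ac at 17.1 and 17.1-fold. It was followed by chr5:147072398-147073072 at 7.61 and 9.72-fold and chr12:94815301-94815766 at 6.38 and 12.5-fold. All 3 promoter-like regions held PU.1 of both cell types, against 30.4% of their set.

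The 3 private distal peaks of immature granulocytes with the highest scores spanned 308, 327 and 600 bp, against a median of 375 bp in that set. By strength, the median width of private distal peaks was 364 bp in bin 1 and 400.5 bp in bin 5. The one with the highest score, chr11:110027034-110027341, had 14.1-fold H3K27ac in immature granulocytes and no peak in either BALB/c library, although C57 replicate 2 had one at 4.07-fold. It held PU.1 at 11.9-fold in eosinophils and 16.1-fold in immature granulocytes. On the same chromosome, chr11:110129414-110130013 had 11.4-fold H3K27ac and PU.1 at 11.9-fold in eosinophils and 18.6-fold in immature granulocytes. The other, chr3:93356313-93356639, had 11.8-fold H3K27ac with PU.1 at 3.42-fold in eosinophils and 10.5-fold in immature granulocytes. All 3 held PU.1 of both cell types, against 14.3% of their set. By the definition of the set, no peak was called there in either BALB/c H3K27ac list.

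Among immature granulocyte-private promoter-like peaks the highest scores were at chr16:62846984-62847434 with 12.4-fold, chr16:45148728-45149046 with 12.7-fold and chr3:142223455-142223797 with 11.03-fold H3K27ac. All 3 held PU.1 of both cell types, against 23.0% of their set, and an eosinophil ATAC region, against 57.2%. At the second, PU.1 stood at 6.02-fold in eosinophils and 20.8-fold in immature granulocytes.

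The widest private distal regions carried weak folds over long spans. In eosinophils chr6:72429196-72432221 spanned 3026 bp with 2.61 and 2.89-fold H3K27ac in replicates 1 and 2, and held 2 eosinophil PU.1 peaks and none of immature granulocytes. Likewise chr16:91062175-91065005 spanned 2831 bp with 2.301 and 2.08-fold and 3 eosinophil PU.1 peaks, and chr2:26405664-26408324 spanned 2661 bp with 2.12 and 2.01-fold and 1 PU.1 peak of each cell type. In immature granulocytes the widest were chr11:20815820-20817882 with 2063 bp at 2.94-fold, chr5:151246469-151248393 with 1925 bp at 3.55-fold and chr1:159624682-159626549 with 1868 bp at 3.70-fold. After the first, they held no PU.1 peak and no peak of any other list.

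The shared promoter-like regions with the highest scores had peaks in all 19 lists, which include H3K4me1 and PU.1. They were chr9:35112649-35113363 with 14.1 and 16.5-fold in eosinophil replicates 1 and 2 and 12.9-fold in immature granulocytes, chr12:3109692-3110276 with 16.9, 19.02 and 18.5-fold, and chr6:103598936-103599471 with 17.1, 20.5 and 16.2-fold. A peak of all 19 lists was found at 634 shared promoter-like regions (6.15%), 2 shared distal regions and 0 private regions, which lack at least 1 list by definition. Without these regions the distal share of eosinophil-private over shared regions stood at 37.4 points. Shared distal regions with the highest scores were chr5:144175526-144176448 with 6.08, 7.06 and 4.12-fold in eosinophil replicates 1 and 2 and immature granulocytes, chr1:95186172-95186881 with 5.99, 7.69 and 10.2-fold, and chr4:88085842-88086803 with 3.30, 3.54 and 6.66-fold. The first and second held eosinophil PU.1 only, and the third held PU.1 of both cell types.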

How the data were processed

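The authors deposited 1 peak list per library, called per library and not on pooled libraries, and re-analysed the outside lists themselves, per the series' design text. The submitters' processing notes name the mm9 build, HOMER, bedtools 2.27.0, Bowtie2 2.3.4.1 and Trim Galore 0.4.2 with no role for any; the peak caller is not given in the sources used here. Per the labels' protocols, eosinophil ChIP libraries were made by ChIPmentation. Per peak, the deposited lists hold the authors' −log10 q, a score made of it and a fold enrichment, used to rank, bin and describe peaks within a list. Deposited counts per gene of the BALB/c RNA libraries, without normalization, were divided by the library total. How deeply the peak libraries were sequenced is unknown.

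Peaks that overlap each other within a list were joined, which left 35068 of 35266 immature granulocyte PU.1 peaks. Overlap means at least 1 bp. Shares carry 95% Wilson intervals and differences Newcombe intervals. The only test across libraries is an exact permutation of the Jaccard index. With 1 outside library, cell type cannot be told apart from study, strain, protocol and depth. Regions named are the 3 of each of the 6 sets with the highest score, the 3 widest private distal regions of each cell type and the 3 windows of 1 Mb with most of them, leaving out chromosome 18, the mitochondrial genome and unplaced contigs. The set definitions, lists and rules were chosen with earlier results of these data known. The 2 value columns of outside RNA tables were not used. Set building was tested on simulated data. Calculations used Python 3.11.15, numpy 2.4.6, scipy 1.17.1 and matplotlib 3.10.9. Alternatives tried were the overlap, the −log10 q minimum, list length, joining, single libraries, the C57 libraries, a fixed window, H3K4me3 of either library and the PU.1 lists.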

Additional observations from a re-analysis of the deposited data

How the results depend on the processing

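The 5 main differences kept their sign under each alternative run, but the interval of the immature granulocyte PU.1 difference included 0 in some. These were eosinophil H3K27ac replicate 2 alone (−0.0964 to 2.39) and replicate 1 alone (−0.865 to 2.00). Regions of 500 to 1000 bp (−0.589 to 4.84) and a −log10 q of 5 or more (−6.22 to 19.3) were the others. The −log10 q minimum dropped weaker peaks before the overlap, so its private sets are not subsets of the main ones. The private eosinophil count, 4397, was 777 at a −log10 q of 5 or more, 9213 with either library, 2793 with C57 and 6390 to 8154 with single libraries. The private immature granulocyte count, 17404, was 8096 at a −log10 q of 5 or more, 7303 with lists of equal length and 18079 to 19783 with single eosinophil libraries. The distal excess of eosinophil-private over shared regions, 38.6 points, was 5.33 at a −log10 q of 5 or more, 33.2 with equal lists, 44.0 with either library and 37.2 to 43.2 when 1 H3K27ac or H3K4me3 library was left out. The eosinophil PU.1 difference between the private distal sets, 51.3 points, was 36.0 with 50% overlap, 31.8 at a −log10 q of 5 or more, 46.7 with equal H3K27ac lists, 52.3 with peaks within 1000 bp joined, 36.2 with either library, 57.9 with C57, 52.1 in windows of 1000 bp, 44.95 with equal PU.1 lists, 42.8 with the 50% of PU.1 peaks that score highest, 44.7 in regions of 500 to 1000 bp and 35.9 to 51.2 when 1 library was left out. The immature granulocyte PU.1 difference, 8.64 points, was 7.32, 6.75, 6.23, 2.16, 17.1, 9.08, 6.61 and 2.10 under 50% overlap, a −log10 q of 5, equal H3K27ac lists, either library, C57, windows of 1000 bp, the top-scoring 50% of PU.1 peaks and 500 to 1000 bp, and 0.547 to 8.53 when 1 library was left out. The C57 difference, 43.9 points, was 52.2 with equal lists, 26.3 with either library and 28.3 to 35.9 with single libraries. The Jaccard difference, 0.339, ranged between 0.324 and 0.365 in BALB/c and was 0.174 with C57. The cause of these shifts was not tested. Of 833 other values, 446 were counted as unchanged, 378 as moved, and 9 of those for 6 signed differences changed sign. Shares and differences were judged by the spread between the eosinophil libraries, and counts by a fixed fold limit. The promoter-like immature granulocyte PU.1 difference between the private sets, 5.13 points, was −3.35 to 4.89 when 1 library was left out (−3.35 and −1.59 with single H3K27ac libraries), −0.449 in windows of 1000 bp and −4.94 in regions of 500 to 1000 bp. The distal H3K4me1 difference of eosinophil-private and shared regions, −2.19 points, was 20.4 at a −log10 q of 5 or more and 0.671 in regions of 500 to 1000 bp. The promoter-like macrophage difference between the private sets, −0.571 points, was 2.23 at a −log10 q of 5 or more, 6.34 with equal lists and 11.1 with C57. The width band and the omission of regions with a peak in all 19 lists were added after the data were seen. No paired analysis was possible because the outside libraries carry no replicate number and no result comes from a test between groups with shared numbers. With 1 outside library per mark and unknown depth, a peak missing from a list is a call not made, not an absence of the mark.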

Other observations

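Combining readouts narrowed each private distal set, with the criteria and the regions chosen after their values were seen. Of the 2707 eosinophil-private distal regions, 997 (36.8%) overlapped a joined C57 H3K27ac region called in both libraries, 676 of these also had eosinophil ATAC, and 628 (23.2%) had PU.1 of eosinophils as well. Of these, 194 (7.17%) had H3K27ac in neither neutrophils nor macrophages, and 154 (5.69%) also lacked immature granulocyte PU.1. The 5 with the highest score include chr11:73914110-73915472, with 4.63 and 4.22-fold H3K27ac in BALB/c replicates 1 and 2, 7.21 and 5.16-fold in C57 replicates 1 and 2, and eosinophil PU.1 at 7.78-fold. There PU.1 was also called in neutrophils, at 22.5-fold, and in macrophages, at 6.21-fold. At chr17:64031848-64033425, H3K27ac stood at 3.36 and 3.39-fold in BALB/c replicates 1 and 2 and eosinophil PU.1 at 6.98-fold. Neutrophil and macrophage PU.1, which the criteria did not cover, had no peak there. They had none either at chr7:126978584-126979915, with 4.15 and 4.48-fold H3K27ac in BALB/c replicates 1 and 2. The absence of outside H3K27ac and of immature granulocyte PU.1 at both regions was set by the criteria.

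Of the 15526 immature granulocyte-private distal peaks, 3189 (20.5%) held PU.1 of immature granulocytes, and 964 of these no PU.1 of eosinophils. Without eosinophil ATAC and C57 H3K27ac 849 remained, 491 (3.16%) of them without macrophage H3K27ac, and 135 of those had neutrophil H3K27ac. At chr8:111918826-111920005, among the 5 of the 491 with the highest score, H3K27ac stood at 7.35-fold in immature granulocytes and 4.26-fold in neutrophils, and PU.1 at 14.8-fold in immature granulocytes and 22.7-fold in neutrophils. At chr17:43931874-43932185 H3K27ac stood at 12.3-fold in immature granulocytes with no neutrophil peak, while PU.1 stood at 9.13-fold in immature granulocytes and 25.4-fold in neutrophils.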
